A study of Mus musculus with 28 samples.

Results

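The 9 genes described here, Ms4a1, Cd79a, Cd79b, Pax5, Cr2, Cd22, Fcmr, Fcer2a and Blk, are identity genes of B cells and were followed in the bulk RNA of 28 AB1-HA mesothelioma tumors. They were taken by name from the 55341 gene names of the count matrices and were chosen by their log2 CPM across the 6 treatment groups, levels that were known when the genes were proposed. Their own levels and fold changes are therefore a description, and no p-value is given for any one of them. Counts of those that edgeR or DESeq2 called, or that had an unadjusted p under 0.05, describe these same values and are no independent test.

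AB1-HA is a mouse mesothelioma line that carries influenza hemagglutinin, and it was grown under the skin of the right flank of female BALB/c.AusBP mice aged between 8 and 10 weeks. All groups were treated once the tumors had reached 20 to 25 mm2, and whole tumors, 1 from each mouse, were taken at day 7. The control group received PBS (4 tumors). The other groups received ICB (5 tumors), which was anti-CTLA-4 and anti-PD-L1 at 100 µg each with 2 additional doses of anti-PD-L1, 5-FU at 75 mg/kg (5 tumors), cisplatin at 6 mg/kg (4 tumors), 5-FU+ICB (5 tumors) or cisplatin+ICB (5 tumors). Every tumor came from the same cell line, in mice with a host immune system of their own.

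B cells recognise antigen through the B cell receptor, a membrane immunoglobulin that signals through the paired chains CD79A and CD79B. Blk is a Src-family kinase of that pathway, and CD22 and the complement receptor CR2 (CD21) lower or raise the signal. Ms4a1 encodes CD20, Fcmr the Fc receptor for IgM, Fcer2a the low-affinity IgE receptor CD23, and Pax5 the transcription factor that holds cells in the B lineage until they become plasma cells. In tumors, B cells are found scattered or in lymphoid aggregates, where the chemokine CXCL13 attracts cells that carry CXCR5.

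In the GENCODE M21 annotation of GRCm38, Ms4a1 lies on chromosome 19 (11249675 to 11266241, minus strand), Cd79a on chromosome 7 (24897381 to 24902197, plus strand), Cd79b on chromosome 11 (106311341 to 106314762, minus strand) and Pax5 on chromosome 4 (44524757 to 44710487, minus strand). Cr2 (195136811 to 195176716, minus strand) and Fcmr (130865669 to 130880791, plus strand) are both on chromosome 1, Cd22 is on chromosome 7 (30865402 to 30880342, minus strand), Fcer2a on chromosome 8 (3681737 to 3694175, minus strand) and Blk on chromosome 14 (63372836 to 63417037, minus strand). Exons of Pax5 share 636 bases with 5730488B01Rik and 125 bases with Gm12462, both on the opposite strand, and exons of Cd22 share 479 bases with Gm29439. Whether the counting used strand is not given in the sources used here, so reads from these stretches cannot be told apart.

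RefSeq (GRCm38.p6) gave a promoter for 6 of the 9 genes. The promoters of 4 genes are shown because Cr2 and Fcer2a varied with most of the other B cell genes from tumor to tumor, whereas Pax5 and Cd79a did not. Each stretch runs 5′ to 3′ toward the transcription start and ends before the first annotated exon, and capitals mark matches to the motifs named after it.
Cr2, chr1:195176720-195176969, minus strand: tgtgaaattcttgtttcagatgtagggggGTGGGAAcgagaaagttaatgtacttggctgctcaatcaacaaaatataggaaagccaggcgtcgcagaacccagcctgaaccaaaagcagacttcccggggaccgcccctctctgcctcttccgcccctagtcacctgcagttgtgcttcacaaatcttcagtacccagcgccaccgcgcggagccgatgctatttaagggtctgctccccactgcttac
Fcer2a, chr8:3694176-3694424, minus strand: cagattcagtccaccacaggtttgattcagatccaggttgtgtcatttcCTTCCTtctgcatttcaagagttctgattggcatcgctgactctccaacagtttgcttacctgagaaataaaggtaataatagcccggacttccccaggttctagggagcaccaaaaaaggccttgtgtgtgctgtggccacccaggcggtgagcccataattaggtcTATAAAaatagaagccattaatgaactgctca
Pax5, chr4:44710695-44710944, minus strand: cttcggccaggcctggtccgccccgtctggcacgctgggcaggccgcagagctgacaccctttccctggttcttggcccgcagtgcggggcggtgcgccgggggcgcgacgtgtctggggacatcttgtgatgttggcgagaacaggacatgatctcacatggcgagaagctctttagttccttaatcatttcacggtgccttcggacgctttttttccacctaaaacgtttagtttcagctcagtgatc
Cd79a, chr7:24897247-24897380, plus strand: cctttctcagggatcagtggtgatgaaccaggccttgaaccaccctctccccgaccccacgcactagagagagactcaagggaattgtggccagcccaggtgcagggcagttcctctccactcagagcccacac
Motifs of 5 kinds of factor (EBF, octamer, ETS, RBPJ and the TATA box) were searched on both strands of the 250 bases before the start, and they were chosen after these sequences had been seen. No match overlapped another. The RBPJ motif GTGGGAA stood in the promoter of Cr2, at position -221, and in 5.42% of all 32851 promoters of that length. The ETS motif AGGAAG was matched on the reverse strand in Fcer2a, at position -201, and in Cd79a at position -55, inside the annotated exon and so not printed. It stood in 29.5% of all promoters. Fcer2a also held the TATA box TATAAA at position -33, as did 12.4% of promoters. Cd22 had CCCTGGGG at position -48, a match to the EBF motif CCCNNGGG, which 11.8% of promoters hold. The octamer ATGCAAAT, found in 1.6% of promoters, was in none of the 6, and Pax5 and Fcmr held no match to any of the 5. These matches describe letters only.

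The total of the estimated counts was 23541733 to 33950805 per tumor, and 3 counts, used as the floor of detection, corresponded to 0.0822 to 0.159 CPM. CPM are counts relative to the total of the library, corrected with edgeR's TMM factors over the 28 tumors. The precision this gives covers counting error only. The 5-FU groups and the cisplatin groups were deposited as separate matrices that hold the same 9 PBS and ICB tumors, so comparisons against PBS or ICB share those tumors. In these bulk samples, fewer B cells and less RNA per B cell cannot be told apart.

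One library stood apart from the rest. 5-FU+ICB replicate 5 had the highest level of all 9 genes among the 28 tumors, between 1.74 times (Cd22) and 23.6 times (Cr2) the next highest tumor. Its Msln, the mesothelin gene by which mesothelioma is commonly marked, was at 0.5 CPM, against 34.4 to 654 CPM in the other 27 tumors. The same library held 491 CPM of Glycam1, 350 CPM of Ccl19, 248 CPM of Ccl21a and 38 CPM of Madcam1, genes of lymph node venules and stroma. In the other 27 tumors the highest levels were 3.74 CPM for Glycam1, 8.34 CPM for Ccl19, 12.3 CPM for Ccl21a and 0.298 CPM for Madcam1. Krt19, a keratin of mesothelial and other epithelial cells, was at 48.9 CPM in it and at most 1.86 CPM elsewhere, whereas Vim, at 2630 CPM, was within the range of the other tumors (2230 to 5360 CPM). Of the other mesothelial markers, Upk3b was at 0 in this library and at most 0.0671 CPM in the other 27, and Krt18 and Krt8, at 27.2 and 33.4 CPM in this library, were at most 1.52 and 9.33 CPM in those 27, so that in the 27 the labelled tumor type rested on Msln, Vim and Pdpn (58.6 to 240 CPM). Pdpn (71.4 CPM) and Wt1 (0.7 CPM, beside 0 to 2.78 CPM) of this library were within the range of the others. Results of the 5-FU+ICB group against PBS are therefore given with and without this library. Cisplatin+ICB replicate 1 also differed from its group, with the highest Msln of all tumors (654 CPM), the lowest summed level of other B lineage genes (58.9 CPM) and the lowest Pax5 (0.106 CPM).

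Cd79a and Cd79b encode the signaling chains of the receptor. Cd79a was present in every PBS tumor, at 14.8, 12.2, 12.5 and 13.4 CPM. In 5-FU tumors it was at 11.6, 10.6, 38.4, 11.2 and 17.5 CPM, and in cisplatin tumors at 9.66, 13.6, 12.7 and 17.9 CPM. Both of these groups overlapped PBS. ICB tumors, at 5.52, 3.26, 7.74, 5.54 and 3.17 CPM, were all lower than the PBS tumors. The combinations held 9.87, 10.9, 6.45, 9.59 and 287 CPM in 5-FU+ICB and 12.2, 4.3, 8.69, 10.1 and 9.14 CPM in cisplatin+ICB. Apart from 5-FU+ICB replicate 5, no tumor of either combination exceeded the highest PBS tumor.

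Cd79b had a different order of groups. In PBS it was at 1.7, 1.86, 0.687 and 1.3 CPM, and in cisplatin at 1.47, 0.495, 0.503 and 4.89 CPM. The 5-FU tumors, at 3.01, 2.8, 29.7, 2.47 and 9.25 CPM, were all above the PBS tumors. In ICB it reached 1.7, 3.48, 9.39, 0.792 and 2.99 CPM, overlapping PBS. 5-FU+ICB tumors held 13.1, 1.43, 6.89, 10.2 and 181 CPM and cisplatin+ICB tumors 1.59, 1.53, 0.884, 4.67 and 6.26 CPM. With each level divided by the length of the exons, Cd79a stood 6.44 to 17.9 times above Cd79b in PBS tumors (median 9.34) and 3.6 to 27 times above it in cisplatin tumors (median 15.6). In 5-FU tumors the ratio was 1.27 to 4.45, lower than in every PBS tumor but overlapping cisplatin replicate 4 (3.6), and it was 1.56 in 5-FU+ICB replicate 5. ICB (median 1.04) and 5-FU+ICB (median 0.923) had the lowest ratios, although ICB replicate 4 (6.87) and 5-FU+ICB replicate 2 (7.49) were within the range of PBS.

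Cd22, the inhibitory receptor of the sialic acid-binding family, was the gene of the 9 with the largest fold change in ICB tumors. Its PBS levels were 4.83, 6.31, 3.83 and 5.68 CPM, and ICB tumors held 35.3, 67.2, 82.5, 19.1 and 70 CPM, with no overlap. 5-FU tumors, at 13.3, 11.4, 64.4, 9.53 and 25 CPM, were also all above PBS. The cisplatin tumors (10.7, 2.13, 4.6 and 8.5 CPM) overlapped PBS. Among the combinations, 5-FU+ICB had 55.9, 5.15, 70.6, 34.7 and 144 CPM and cisplatin+ICB had 4.51, 40, 7.6, 36.7 and 28.7 CPM, so that 5-FU+ICB replicate 2 and cisplatin+ICB replicate 1 remained at the level of PBS tumors.

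Ms4a1, the CD20 gene, was low in PBS tumors, at 0.527, 0.61, 0.289 and 0.266 CPM. All 5-FU tumors were higher, with 1.75, 2.12, 25.1, 1.25 and 9 CPM. The ICB tumors held 1.33, 0.914, 5.33, 0.274 and 0.983 CPM, the cisplatin tumors 0.906, 0.19, 0.403 and 4.18 CPM, the 5-FU+ICB tumors 5.14, 0.744, 1.3, 6.1 and 218 CPM and the cisplatin+ICB tumors 0.689, 1.12, 0.707, 2.69 and 3.81 CPM. Both combinations were above PBS in every tumor, whereas ICB and cisplatin overlapped PBS.

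Cr2 and Fcmr were low in PBS tumors, where Cr2 rested on 1 to 4 counts (0.0339 to 0.133 CPM) and Fcmr on 1 to 5 counts (0.0339 to 0.181 CPM). In 5-FU tumors Cr2 was at 0.329, 0.827, 2.58, 0.275 and 1.29 CPM and Fcmr at 1.04, 0.971, 16.9, 0.428 and 5.41 CPM, all above PBS. Fold changes of both genes against PBS therefore rest on few counts in the control group. Fcmr had 0 counts in 1 cisplatin and 2 cisplatin+ICB tumors. High values elsewhere were 1.81 CPM of Cr2 and 1.21 CPM of Fcmr in cisplatin replicate 4, 0.355 CPM and 1.5 CPM in ICB replicate 3, 0.31 CPM and 1.55 CPM in cisplatin+ICB replicate 5, and 0.897 CPM and 1.76 CPM in 5-FU+ICB replicate 4. 5-FU+ICB replicate 5 held 61 CPM of Cr2 and 109 CPM of Fcmr.

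Fcer2a, which encodes the IgE receptor CD23 of mature follicular B cells, was at 0.203, 0.203, 0.289 and 0.166 CPM in PBS, on only 5 to 8 counts. Every ICB tumor (0.378 to 0.789 CPM, median 0.75), every 5-FU tumor (0.397 to 3.56 CPM, median 0.971) and every 5-FU+ICB tumor (0.365 to 32.3 CPM, median 1.18) was higher. Cisplatin (0.19 to 1.84 CPM, median 0.39) and cisplatin+ICB (0.159 to 1.08 CPM, median 0.557) overlapped PBS. Blk was at 0.108 to 0.509 CPM in PBS and overlapped PBS in each of the other groups, with 0.275 to 3.38 CPM in 5-FU, 0.124 to 33.9 CPM in 5-FU+ICB and at most 1.22 CPM in ICB, 0.948 CPM in cisplatin and 0.991 CPM in cisplatin+ICB.

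Pax5 was at 2.47, 0.61, 2.57 and 3.46 CPM in PBS, at 2.47, 2.51, 2.28 and 2.01 CPM in cisplatin, and at 4.71, 4.71, 7.44, 3.39 and 5.31 CPM in 5-FU tumors. The lowest 5-FU tumor was slightly under the highest PBS tumor, and all 5-FU tumors were above all cisplatin tumors. ICB ranged from 0.794 to 2.25 CPM, cisplatin+ICB from 0.106 to 4.15 CPM, and 5-FU+ICB from 2.23 to 4.4 CPM in 4 tumors with 70 CPM in replicate 5. Pax5 was above the floor in every tumor but cisplatin+ICB replicate 1.

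**Figure D1:**
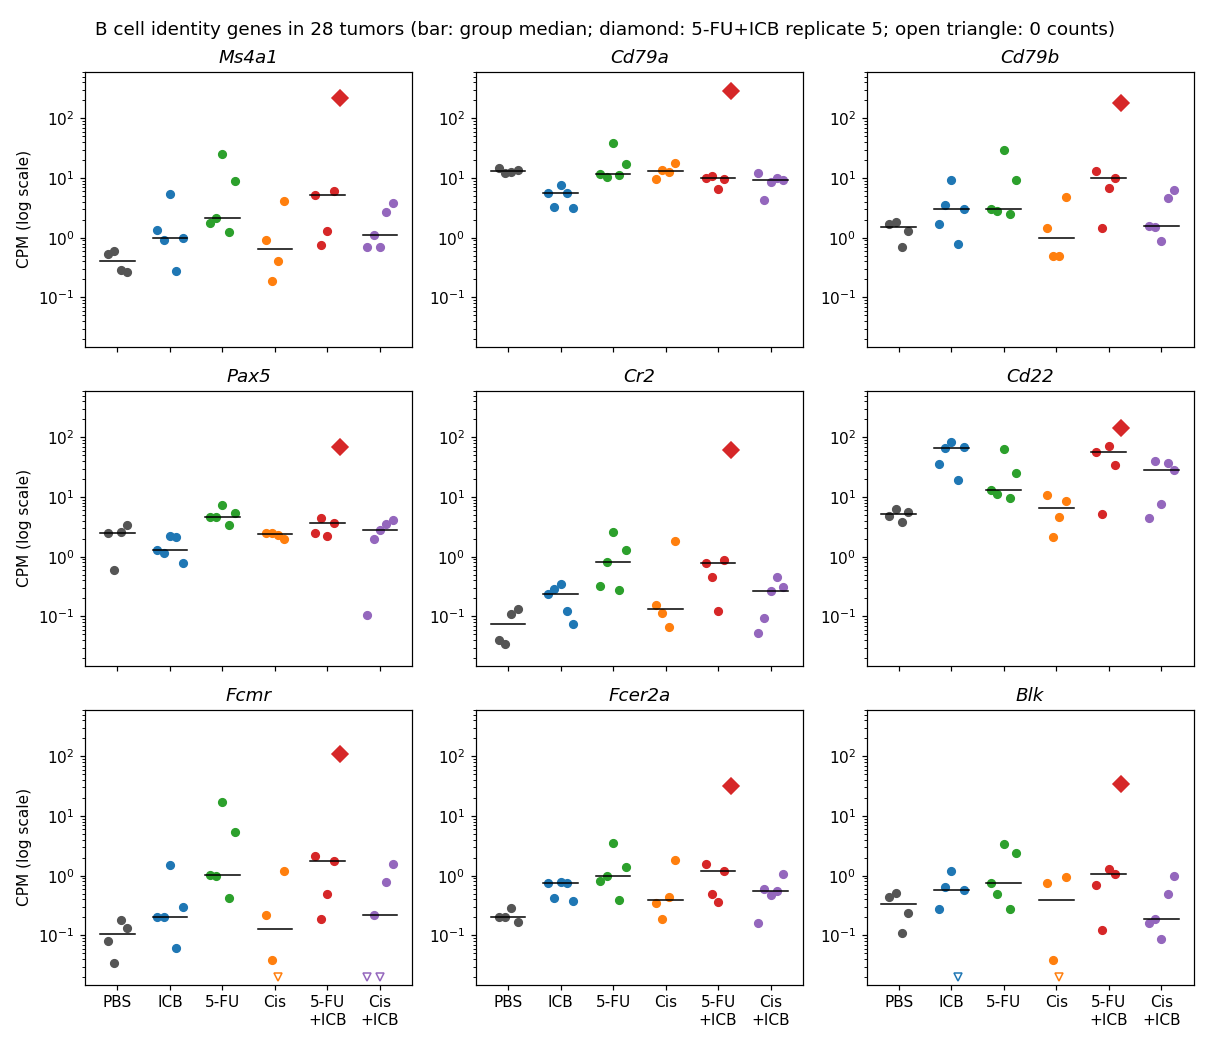
CPM on a log scale (y) of each of the 9 genes in the 6 treatment groups (x), 1 point per tumor, with the group median as a bar, 5-FU+ICB replicate 5 as a diamond and tumors with 0 counts as open triangles at the bottom. 5-FU+ICB replicate 5 is the highest tumor in all 9 panels, and 5-FU replicate 3 is the highest of the other 27 tumors in 8 of them.

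Between genes, levels were compared per kilobase of exon. In PBS tumors Cd79a, at 9.08 ± 0.801 CPM per kb (SD, n = 4), was followed by Cd22 (1.02 ± 0.213) and Cd79b (0.969 ± 0.365), whose ranges overlapped, then by Pax5 (0.257 ± 0.135) and Blk (0.12 ± 0.069), which overlapped as well. Fcer2a (0.0696 ± 0.0169), Ms4a1 (0.0684 ± 0.0277) and Fcmr (0.0618 ± 0.0367) did not differ beyond their spread from each other or from Blk, and Cr2 was lowest at 0.00972 ± 0.00607 CPM per kb. In 5-FU+ICB replicate 5 the order was Cd79a (197 CPM per kb), Cd79b (126), Fcmr (62.8), Ms4a1 (35.2), Cd22 (28.6), Blk (12.6), Fcer2a (10.4), Pax5 (7.91) and Cr2 (7.52).

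Averaged over the 9 genes, log2 CPM (prior count 2) was -0.25 ± 0.12 (SD, n = 4) in PBS, 0.55 ± 0.77 (n = 5) in ICB, 1.82 ± 1.24 (n = 5) in 5-FU, 0.12 ± 1.15 (n = 4) in cisplatin, 2.37 ± 2.48 (n = 5) in 5-FU+ICB and 0.42 ± 1.01 (n = 5) in cisplatin+ICB. Without replicate 5 the 5-FU+ICB mean was 1.3 ± 0.83. The 5-FU group then had the highest mean, and its lowest tumor (0.57) was above the highest PBS tumor (-0.13). Neighbors in this order, 5-FU and 5-FU+ICB included, lay within their spread. The tumors with high values were often the same for each gene. 5-FU replicate 3 was the highest of the other 27 tumors for 8 of the 9 genes, and 5-FU replicate 5 was the second highest of its group for all 9. ICB replicate 3 was the highest ICB tumor for all 9, cisplatin replicate 4 the highest cisplatin tumor for 7, and cisplatin+ICB replicate 5 the highest of its group for 6.

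The comparison of 5-FU with PBS asked what the chemotherapy alone did to these genes. The fitted difference was positive for all 9, with a median log2 fold change of 2.72 beside -0.01 over all genes tested. It was 4.2 (standard error, SE, 1.61) for Ms4a1, 2.76 (1.2) for Cd79b, 2.26 (0.74) for Cd22, 2.72 (1.15) for Fcer2a, 2.14 (1.35) for Blk, 1.2 (0.86) for Pax5 and 0.44 (0.9) for Cd79a. For Cr2 and Fcmr the values were 3.67 (1.6) and 5.5 (1.92). A gene was called when its Benjamini-Hochberg adjusted p in edgeR's quasi-likelihood test was under 0.05 and its absolute log2 fold change over 0.5. Shares of all genes called, here and below, include genes that rose and genes that fell. Cd22 and Fcmr, 2 of the 9, were called, where 23.0% of all genes were. Fcmr, like Cr2 and Fcer2a, had at most 8 counts in every PBS tumor and passed the filter on low counts through the treated groups. Calls of these genes, here and in the other comparisons with PBS, therefore support nothing. In 6 of the 9 (Ms4a1, Cd79b, Cr2, Cd22, Fcmr and Fcer2a) all 5-FU tumors exceeded all PBS tumors, as was the case for 9.27% of all genes. Since the genes were proposed from these levels, nothing is read from these shares.

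The spread used by this test came from all 4 groups of the matrix, 5-FU+ICB replicate 5 included, although that tumor is in neither group compared. With it left out of the fit, an alternative added after the data had been seen, the fold changes moved by at most 0.01 and the standard errors shown here were smaller. That of Ms4a1 was 1.08, of Cd79b 0.88, of Cr2 0.79 and of Pax5 0.41. In that fit 7 of the 9 genes were called, all but Cd79a and Blk, and 27.0% of all genes. The 7 include Cr2, Fcmr and Fcer2a, with their few counts in PBS. Other settings lost the calls. None of the 9 was called by edgeR in the 6-group model, with the replicate block, or without 5-FU replicate 3, 5-FU replicate 5 or any 1 of the 4 PBS tumors.

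Other genes of the B lineage were compared in the same way. Their list too was drawn up with earlier results of these data known, so it is not independent evidence. Of 18 such genes, all 18 had a higher fitted level in 5-FU than in PBS tumors (median 1.68 beside -0.01 over all genes). With all tumors in the fit, 2 were called, both higher, Pou2af1 and Pou2f2, a smaller share than the 23.0% called over all genes. With 5-FU+ICB replicate 5 left out 11 rose, beside 27.0% of all genes called in either direction. Pou2af1, the coactivator OCA-B, was at 0.794, 1.65, 9.26, 0.611 and 5.56 CPM in 5-FU and 0.0406 to 0.136 CPM (1 to 4 counts) in PBS, a difference of 5.28 on the log2 scale (SE 1.82). With so few counts in PBS it passed the filter on low counts through the treated groups, so that its calls, here and in the combinations, support nothing. Pou2f2, the octamer-binding factor OCT2, rose by 2.14 (0.46, edgeR adjusted p = 0.00643). Cxcr5, the receptor for CXCL13, had a log2 fold change of 2.96 (1.25, edgeR adjusted p = 0.0861), and of 2.96 (0.76, adjusted p = 0.0105) without replicate 5 in the fit.

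**Figure D2:**
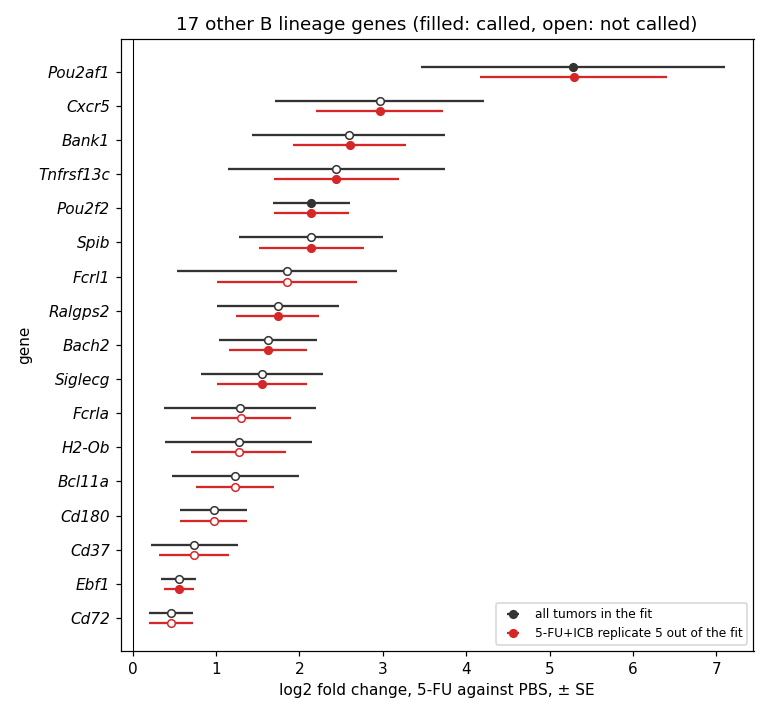
Log2 fold change of 5-FU against PBS tumors with its SE (x) for 17 of the other B lineage genes (y), with all tumors in the fit (black) and with 5-FU+ICB replicate 5 out of it (red), filled where the gene was called. The points hardly move between fits, the error bars shorten, and the called genes among those drawn go from 2 to 10.

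Some markers of other cells differed between 5-FU and PBS tumors as well. Of the lymph node stroma list, Cxcl13 rose in 5-FU tumors. Chst4, the other called gene of that list, had 0 or 1 count in every PBS tumor and passed the filter on low counts through the treated groups, so that its call supports nothing. Cxcl13 went from 20.4 to 61.1 CPM in PBS to 136, 175, 788, 125 and 300 CPM in 5-FU tumors (2.71, SE 0.88, edgeR adjusted p = 0.0329). The summed level of the 6 genes of the list was 20.9 to 62.3 CPM in PBS and 129 to 812 CPM in 5-FU. Most of the sum was Cxcl13, which lymphoid stroma and some T cells and macrophages express. Madcam1, the addressin of mucosal and lymph node venules, stayed at 0 to 0.223 CPM in 5-FU tumors and 0.0406 to 0.133 CPM in PBS. Of 8 T cell genes 4 rose, among them Cd3e (2.24, SE 0.68, edgeR adjusted p = 0.025), and the sums were 36.3 to 69.5 CPM in PBS and 47.3 to 382 CPM in 5-FU. Of 6 macrophage genes 2 rose, Adgre1 (1.75, SE 0.51, edgeR adjusted p = 0.02) and Mrc1 (1.47, 0.35, adjusted p = 0.00935), and the sums were 1350 to 2060 CPM in PBS and 1810 to 6220 CPM in 5-FU. Cd68 of that list was not higher, at 168 ± 57 CPM (SD, n = 5) in 5-FU and 201 ± 11.8 CPM (n = 4) in PBS. Beside these counts of T cell and macrophage genes, 23.0% of all genes were called, in either direction. Msln was lower in every 5-FU tumor (45 to 177 CPM) than in PBS (271 to 358 CPM), with a log2 fold change of -1.54 (SE 0.76, edgeR adjusted p = 0.136), and Wt1, with 0 to 5.4 counts in PBS and 13 to 35 in 5-FU, was called higher. Skeletal muscle genes summed to 835 to 1310 CPM in 4 of the 5-FU tumors and 7.91 CPM in the fifth, beside 101 to 167 CPM in PBS. The part of these cells in the B cell values was not tested.

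The comparison of 5-FU+ICB with PBS depended on replicate 5. With it, 8 of the 9 genes were called, all but Cd79a, beside 40.7% of all genes, and the median log2 fold change was 4.95 (-0.04 over all genes). The SDs of the 5-FU+ICB group exceeded their means for 8 genes, for example 46.2 ± 95.9 CPM (SD, n = 5) for Ms4a1 and 42.4 ± 77.3 CPM for Cd79b. In 3 of the 9 (Ms4a1, Fcmr and Fcer2a) every 5-FU+ICB tumor exceeded every PBS tumor (10.9% of all genes). Without replicate 5, 6 of the 9 were called beside 36.8% of all genes, and the median was 2.52 (-0.03). Ms4a1 then changed from 6.79 (SE 1.78) to 2.99 (1.06) on the log2 scale, Cd79b from 4.95 (1.32) to 2.52 (0.89), and Cd22 from 3.61 (0.78) to 3.03 (0.72). Cr2 changed from 7.29 (1.75) to 2.81 (0.81), Fcmr from 7.73 (2.05) to 3.42 (1.26), Fcer2a from 5.08 (1.25) to 2.08 (0.62) and Blk from 4.51 (1.46) to 1.29 (0.96). Pax5 went from 2.92 (0.92) to 0.54 (0.42), and Cd79a from 2.33 (0.95) to -0.51 (0.37). Blk and Pax5 were no longer called.

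Of the 18 other B lineage genes, 16 rose in 5-FU+ICB relative to PBS with replicate 5 and 11 without it. Over all genes, 40.7% and 36.8% were called in either direction. Pou2af1, one of them, was at 4.43, 0.558, 1.05, 2.66 and 169 CPM, beside its 1 to 4 counts in PBS tumors. Every 5-FU+ICB tumor was above every PBS tumor for this gene. Markers of other cells rose in the same comparison. All 8 T cell genes rose with replicate 5 and without it, among them Cd3e (4.14, SE 0.74, edgeR adjusted p = 0.000889, or 3.9, SE 0.75, adjusted p = 0.00179, without), and their sums were 820, 62.4, 351, 405 and 1270 CPM. Ptprc, the pan-leukocyte gene of CD45, rose by 2.15 (SE 0.44, edgeR adjusted p = 0.00174), and 4 of 6 macrophage genes rose in both fits. The lymph node stroma genes summed to 830, 18, 350, 275 and 2010 CPM. Skeletal muscle genes, of which 0 of 5 were called by edgeR and 0 had an unadjusted p under 0.05, summed to 721, 2.36, 839, 522 and 4360 CPM, and replicate 5 had the highest sum of all 28 tumors. The part of these cells in the B cell values was not tested.

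**Figure D3:**
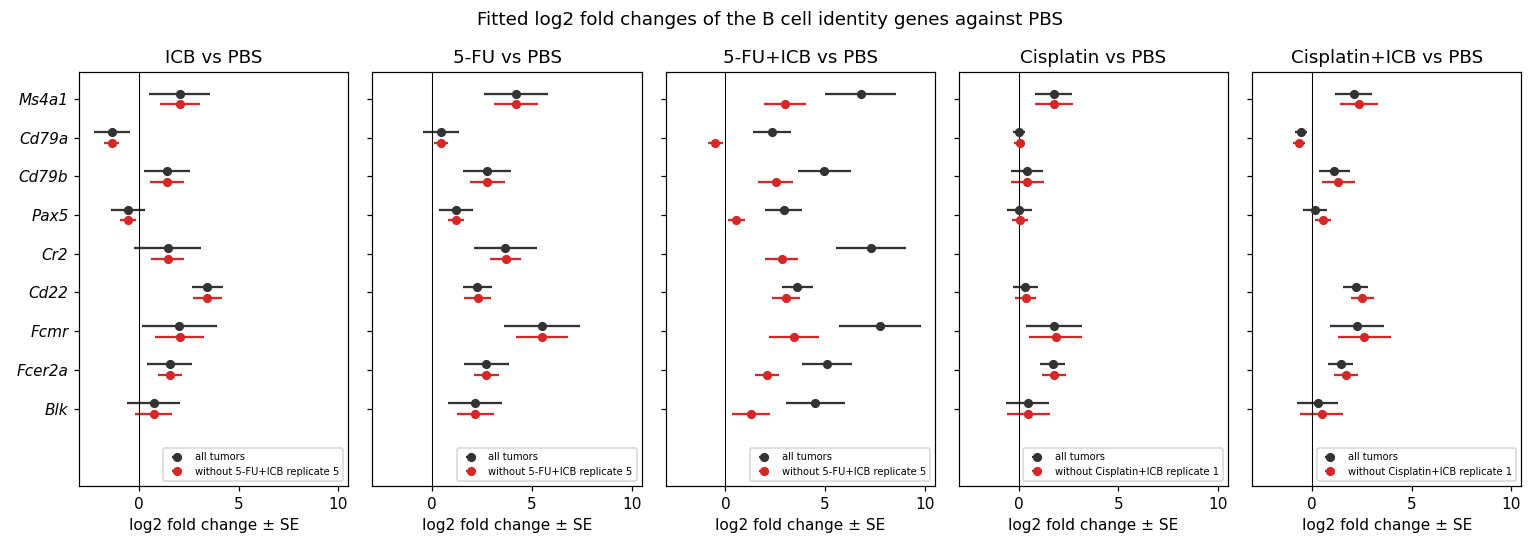
Fitted log2 fold changes against PBS with their SEs (x) for the 9 genes (y) in 5 comparisons, with all tumors (black) and without 1 library (red; 5-FU+ICB replicate 5 in the first 3 panels and cisplatin+ICB replicate 1 in the others). In 5-FU+ICB the values shrink once replicate 5 is left out, and Cd79a crosses 0; Cr2 did not pass the filter in the cisplatin matrix and is not drawn there.

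In ICB tumors, Cd22 was called and the other 8 were not, beside 37.8% of all genes. Its log2 fold change against PBS was 3.42 (SE 0.78). Fcer2a, which with Cd22 did not overlap PBS in the higher direction (15.8% of all genes), was at 1.54 (1.14), and Ms4a1 (2.04, SE 1.54), Fcmr (2.03, 1.9), Cd79b (1.4, 1.15), Cr2 (1.43, 1.66) and Blk (0.73, 1.33) were also positive. Pax5 (-0.53, 0.85) and Cd79a (-1.37, 0.9) were negative, and Cd79a alone of the 9 was lower in every ICB tumor, as were 21.6% of all genes. Leaving 5-FU+ICB replicate 5 out of the fit gave 3 called genes (41.6% of all genes). These were Cd22, Fcer2a (1.54, SE 0.6) and Cd79a (-1.37, 0.36), the last of them lower. Of the 18 other B lineage genes 5 rose in ICB: Cd180 (2.57, SE 0.42, edgeR adjusted p = 0.000456), Bach2 (2.07, 0.6, adjusted p = 0.0113), Ralgps2 (2.02, 0.73, adjusted p = 0.0348), Pou2f2 and Cd37. Several of these, Cd180 and Cd37 among them, are known in myeloid cells or T cells as well. All 8 T cell genes and all 6 macrophage genes rose in ICB, and Ptprc rose from 92.1 ± 12.7 CPM (SD, n = 4) to 365 ± 82.4 CPM (n = 5), or by 2 on the log2 scale (SE 0.44, edgeR adjusted p = 0.00231). Relative to Ptprc, the mean log2 CPM of the 9 genes differed by -1.16 between ICB and PBS, where without that reference it differed by 0.8. In 5-FU the same differences were 1.12 and 2.07.

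Cisplatin had the smallest median difference from PBS of the 5 treatments. Against PBS 0 of the 8 tested genes were called (Cr2 did not pass the filter on low counts), as were 0% of all genes, and 1 had an unadjusted p under 0.05 in edgeR's test. DESeq2 also called 0. The median log2 fold change was 0.43 (-0.01 over all genes), Cd79a and Pax5 were both at 0.03 (SEs 0.31 and 0.63), and Ms4a1 at 1.75 (0.94). Without cisplatin replicate 4 the difference of the mean log2 CPM changed from 0.37 to -0.14, and the fitted value of Fcmr from 1.77 to -0.25. Of the other B lineage genes 0 of 18 were called, with 1 under 0.05 unadjusted in edgeR's test and 0 by DESeq2.

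Cisplatin+ICB tumors varied widely within the group. Replicates 4 and 5 had mean log2 CPM of 1.27 and 1.59 over the 9 genes, and replicates 1, 2 and 3 had -0.84, 0.28 and -0.21. By the summed CPM of the 9 genes, replicate 2 (50.1) lay nearer to replicates 4 (60) and 5 (56) than to replicates 1 (19.5) and 3 (21.5). Against PBS, Cd22 (2.2, SE 0.62) was the 1 called gene of 8 tested, beside 6.10% of all genes, and Ms4a1 (2.1, 0.92) was higher in every tumor (3.43% of all genes). Cd79a was at -0.56 (0.29) and Pax5 at 0.16 (0.6). Without replicate 1, 2 of the 8 were called beside 35.3% of all genes. None was called by edgeR with no filter, in the 6-group model, in the model of both groups alone, with the replicate block, or without replicate 2, 4 or 5 or any 1 of the PBS tumors. Of the 18 other B lineage genes 0 were called with all tumors, although 7 had an unadjusted p under 0.05 in edgeR's test and DESeq2 called 4. Without replicate 1 in the fit, 8 rose, among them Cd180 (1.93, SE 0.36, edgeR adjusted p = 0.00191) and Siglecg (1.8, 0.46, adjusted p = 0.00767). The 8 include Pou2af1, with its few counts in PBS. T cell genes rose in this comparison as well, 6 of 8 with all tumors and 8 of 8 without replicate 1, among them Cd3e (2.72, SE 0.73, edgeR adjusted p = 0.0375, or 3.09, SE 0.59, adjusted p = 0.00217, without). Their sums were 72.3, 174, 63, 264 and 335 CPM, and Ptprc rose by 1.41 (SE 0.33, edgeR adjusted p = 0.0238). The part of T cells in these values was not tested either.

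Whether the chemotherapies differed was compared directly. All 9 genes were higher in 5-FU than in cisplatin tumors, with a median log2 fold change of 1.71 (-0.02 over all genes), and 0 of 9 were called (0.362% of all genes), with 3 under 0.05 unadjusted in edgeR's test and 0 by DESeq2. Pax5 was higher in every 5-FU tumor (5.29% of all genes). Of the other B lineage genes 0 of 18 were called by edgeR, 3 were under 0.05 unadjusted, and DESeq2 called 1. For 5-FU+ICB against cisplatin+ICB the median was 3.82 with replicate 5 and 0.87 without, and 0 of 9 were called by edgeR in either fit, beside 0.297% and 0.0163% of all genes. With replicate 5 all 9 had an unadjusted p under 0.05 and DESeq2 called 5. Leaving out 5-FU+ICB replicate 2, the tumor of that group with the lowest mean, gave 8 called genes in edgeR's test, beside 11.6% of all genes, and leaving out cisplatin+ICB replicate 5 gave 8 beside 6.10%. Without 5-FU+ICB replicate 3 or 4 there were 1 and 3, beside 0.368% and 1.65%. Replicate 5 was in each of these fits.

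The combinations were also set beside their components. Relative to ICB, 5-FU+ICB tumors had a median log2 fold change of 3.7 over the 9 genes with replicate 5 and 0.94 without. EdgeR's test called 0 of 9 in both fits (0.229% and 0.208% of all genes), 8 were under 0.05 unadjusted with replicate 5 and 2 without, and DESeq2 called 2. Cd22 was the exception in size, at 0.19 (SE 0.64), with 54.8 ± 26.5 CPM (SD, n = 5) in ICB and 62 ± 51.8 CPM (n = 5) in 5-FU+ICB. Relative to 5-FU the median was 2.23 with replicate 5 and -0.86 without, and Cd22 alone then stayed positive (0.76, SE 0.63). Here 0 of 9 were called by edgeR and by DESeq2 (0.0112% of all genes by edgeR), and 4 had an unadjusted p under 0.05 in edgeR's test. Cisplatin+ICB differed from ICB by a median of -0.02 and from cisplatin by 0.24, with 0 of 8 called by edgeR in both (0% of all genes), 2 and 1 under 0.05 unadjusted, and 0 and 1 called by DESeq2. The interaction, the difference that a chemotherapy made with ICB minus the difference it made without, had a median of 0.82 for 5-FU with replicate 5 and -2.19 without, and of -1.23 for cisplatin. No gene of the 9 was called in either interaction by edgeR or DESeq2, beside 0.0893% and 0% of all genes, with 2 and 1 under 0.05 unadjusted in edgeR's test and 5 for 5-FU without replicate 5.

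The genes did not all vary together across tumors. As a description over the 28 tumors, which share libraries and depth, the log2 CPM of Fcmr and Ms4a1 each correlated with the mean of the other 8 at a Pearson r of 0.97, Cd79b at 0.94, Cr2 and Fcer2a at 0.92 and Blk at 0.89. The Spearman rho of these 6 was between 0.8 and 0.96, and their r over the 27 tumors without 5-FU+ICB replicate 5 was between 0.81 and 0.97. Pax5 had an r of 0.71 and a rho of 0.45, Cd22 0.62 and 0.63, and Cd79a 0.65 and 0.03, the last falling to an r of 0.24 over the 27 tumors without 5-FU+ICB replicate 5. Cd22 instead followed Ptprc, with an r of 0.96 over those 27 tumors, where Ms4a1 had 0.64, Pax5 0.05 and Cd79a -0.44. With Msln, the tumor cell gene, the r over the same tumors was -0.86 for Cd22, -0.79 for Cd79b, -0.75 for Fcmr, -0.71 for Ms4a1, -0.4 for Pax5 and 0.18 for Cd79a. In 5-FU+ICB replicate 2, for example, Ptprc was at 105 CPM and Cd22 at 5.15 CPM, both within or next to the range of PBS tumors, and in ICB replicate 3 they were at 443 and 82.5 CPM.

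**Figure D4:**
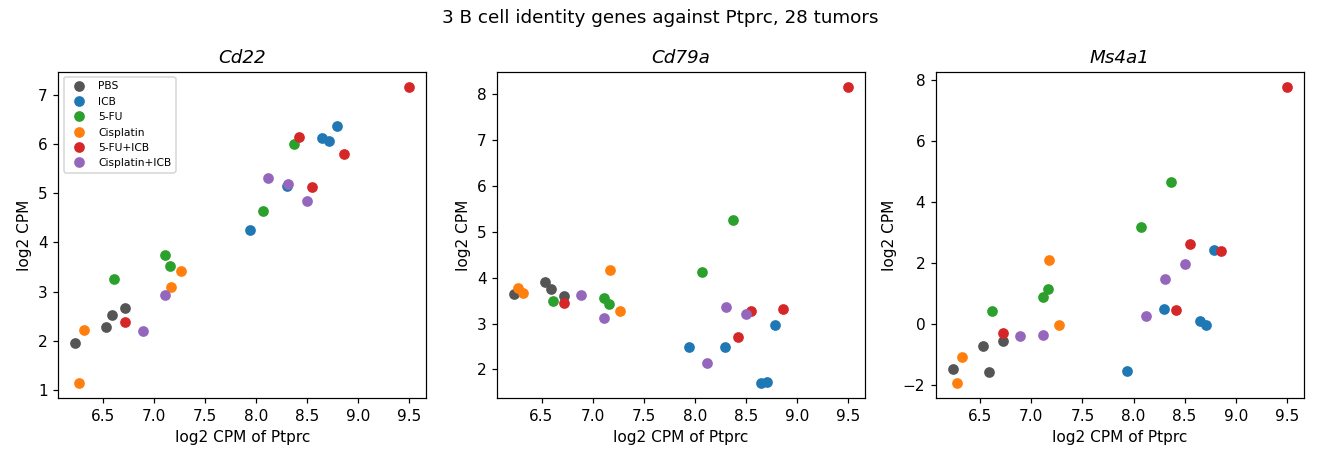
Log2 CPM of Cd22, Cd79a and Ms4a1 (y) against that of Ptprc (x) in the 28 tumors, colored by treatment. Cd22 rises with Ptprc along 1 line, Cd79a is lowest in ICB tumors with high Ptprc, and Ms4a1 spreads between treatments at the same Ptprc level.

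Among 14406 other genes that passed the filter on low counts with a mean of at least 1 CPM, the 10 most like the mean of the 9 genes over the 28 tumors included Cxcr5 (Pearson r 0.98), Bank1, Tnfrsf13c and Ighd (0.97 each), Pou2af1 (0.96), Dtx1 (0.95), Spib (0.93) and Glycam1 (0.92). Bank1 is an adaptor of B cell receptor signaling, Tnfrsf13c the receptor for BAFF, Ighd the constant region of IgD, and Glycam1 a mucin of lymph node venules. By rank over the tumors (Spearman) 6 of these 10 were again among the first 10, by deviations from the group means 7, and without 5-FU+ICB replicate 5, 8, with Glycam1 among those replaced.

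Immunoglobulin genes were read as a group of 4 constant regions. Ighd was at 0.446, 0.271, 0.289 and 0.864 CPM in PBS, 1.04, 2.16, 11.4, 0.978 and 3.98 CPM in 5-FU, and 5.73, 0.992, 1.26, 2.91 and 261 CPM in 5-FU+ICB, so that both treatments were above PBS in every tumor. Its log2 fold change in 5-FU was 3.06 (SE 1.5, edgeR adjusted p = 0.133), or 3.08 (0.83, adjusted p = 0.0132) without 5-FU+ICB replicate 5 in the fit. Ighm was already at 17.1 to 28.8 CPM in PBS and at 21.8 to 220 CPM in 5-FU. Igkc ranged from 1.22 CPM in a cisplatin tumor to 308 CPM in cisplatin+ICB replicate 5 and 2270 CPM in 5-FU+ICB replicate 5. All 4 rose in 5-FU+ICB with replicate 5, and 1, Ighd, rose without it (2.56, SE 0.84, edgeR adjusted p = 0.0231), beside 40.7% and 36.8% of all genes called in either direction. In 5-FU 0 of 4 were called with all tumors in edgeR's test (1 unadjusted p under 0.05), and 2 without replicate 5, beside 23.0% and 27.0% of all genes.

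Plasma cell genes were described apart from the 9 genes. Of 8 tested, 1, Irf4, rose in 5-FU (2.32, SE 0.68, edgeR adjusted p = 0.0216), beside 23.0% of all genes, and Irf4 is also a gene of activated T cells and macrophages. Jchain, which joins IgM and IgA into polymers, was at 0.849, 3.56, 35, 1.37 and 5.81 CPM in 5-FU and 1.1 to 5.46 CPM in PBS (1.95, SE 1.48, edgeR adjusted p = 0.33), and Mzb1, a chaperone of antibody secretion, had 1.91 (1.46, adjusted p = 0.333). In 5-FU+ICB, 4 of 8 rose and 1 fell with replicate 5, which alone held 596 CPM of Jchain and 261 CPM of Mzb1, and 2 rose and 1 fell without it, beside 40.7% and 36.8% of all genes. The gene that fell was Fkbp11, a chaperone of the secretory pathway (-1.2, SE 0.26, edgeR adjusted p = 0.00229 with replicate 5). Of the germinal center genes, Bcl6 rose in ICB (0.69, SE 0.16, edgeR adjusted p = 0.00279), which T follicular helper cells also express, and 0 of 4 tested were called in 5-FU by edgeR, with 0 under 0.05 unadjusted. In the fits of the separate matrices 1 of 5 precursor B cell genes, Dntt, passed the filter, and it was not called in any comparison with PBS.

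The kinases and adaptors downstream of the B cell receptor are shared with other leukocytes. Of 17, 14 rose and 1, the tetraspanin Cd81, fell in ICB, 6 rose in 5-FU, and 13 rose and 1 fell in 5-FU+ICB. Pik3cd, the delta catalytic subunit of PI3 kinase, rose in 5-FU (1.26, SE 0.39, edgeR adjusted p = 0.0273) and in 5-FU+ICB (2.19, 0.41, adjusted p = 0.00106), and had the largest change of the list in ICB (2.35, 0.41, adjusted p = 0.000617). The shares called over all genes were 37.8% in ICB, 23.0% in 5-FU and 40.7% in 5-FU+ICB. With 5-FU+ICB replicate 5 left out, 13 rose and 1 fell in 5-FU+ICB and 8 rose in 5-FU. Of 12 genes that attract B cells or keep them alive, 7 rose in ICB, 4 in 5-FU, 9 in 5-FU+ICB and 2 in cisplatin+ICB. Without 5-FU+ICB replicate 5 these were 8 in 5-FU+ICB and 6 in 5-FU, and without cisplatin+ICB replicate 1 they were 7 in cisplatin+ICB, where the share over all genes went from 6.10% to 35.3%. Cxcl12, which draws CXCR4-bearing cells, rose in 5-FU (2.62, SE 0.64, edgeR adjusted p = 0.0105), with Lta (1.63, 0.52, adjusted p = 0.03) and Tnfsf13b, the BAFF gene (0.87, 0.25, adjusted p = 0.0198). In 5-FU+ICB replicate 5, Tnfsf13b was at 11.9 CPM, beside 23.2 ± 0.735 CPM (SD) in the rest of its group. Il7 of this list was at 13.7 to 16.8 CPM in PBS and 12.4, 18, 8.28, 11.5 and 11.8 CPM in 5-FU. Its lowest level of all tumors, 3.7 CPM, was in 5-FU+ICB replicate 5. Il21 and Cd40lg had 0 to 4 counts in PBS tumors, so that any call of theirs supports nothing. In cisplatin tumors Cxcl13 was at 45.3, 4.23, 4.93 and 27.7 CPM, and 0 of the 12 were called by edgeR, with 0 under 0.05 unadjusted.

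**Figure D5:**
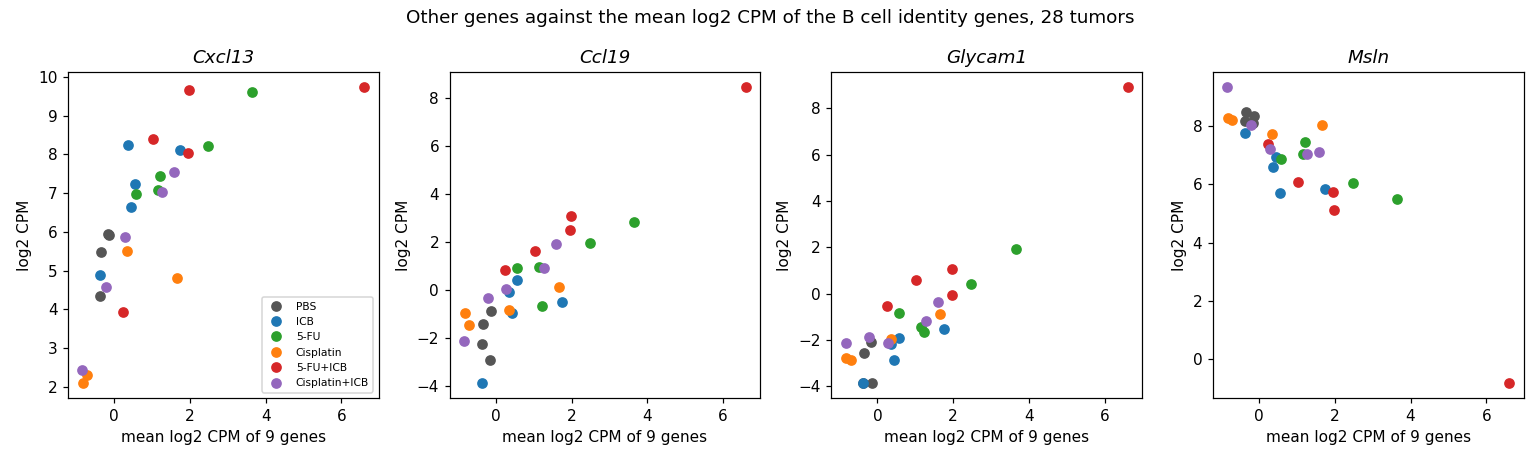
Log2 CPM of Cxcl13, Ccl19, Glycam1 and Msln (y) against the mean log2 CPM of the 9 genes (x) in the 28 tumors, colored by treatment. 5-FU+ICB replicate 5 lies alone at the right, with Ccl19 and Glycam1 far above and Msln far under all other tumors.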

How the data were processed

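RNA of whole tumors was sequenced on an Illumina HiSeq as single-end reads. Per the labels and the submitters' processing notes, reads were demultiplexed with bcl2fastq 2.20.0.422 and quantified with kallisto 0.46.0 on GRCm38, and the authors deposited estimated counts per gene, summarised with tximport, in 2 matrices of 55341 gene names. Of the values, 23.7% were not whole numbers. Date-like names, left by a spreadsheet, stood in 26 rows, none of them a gene reported here. The 9 tumors present in both matrices held identical values and were used once.

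Estimated counts were rounded and tested with edgeR 4.0.16 in R 4.3.3 (filterByExpr, TMM factors, quasi-likelihood F test, Benjamini-Hochberg adjustment over all genes tested). Each matrix was fitted with its 4 groups, and 5-FU was compared with cisplatin, and 5-FU+ICB with cisplatin+ICB, in 1 model of the 28 tumors. After the filter, 17916 genes were tested in the 5-FU matrix, 17819 in the cisplatin matrix and 18521 in the joined data. All 9 B cell identity genes passed in the first and the last and 8 in the second, where Cr2 did not. A gene was called at an adjusted p under 0.05 with an absolute log2 fold change over 0.5. Shares of all genes called count both directions. Standard errors are the fold change divided by the square root of F. CPM and log2 CPM (prior count 2) used TMM factors of the joined data, which ranged from 0.68 to 1.15. Each tumor came from a separate mouse. Scripts were tested on simulated data.

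The 9 genes and all gene lists were chosen with earlier results of these data known. From each list at most 3 called genes per comparison were to be named, with Ighm, Ighd, Igkc, Jchain, Mzb1, Cxcl13, Cd3e and Ptprc in every case. Some genes of these lists are counted but not reported here by name. The mesothelial and lymph node genes named for single libraries, Ccl19 and Glycam1 among them, were picked after their values had been seen. Promoter sequences came from RefSeq, and positions from GENCODE M21. Alternatives were DESeq2 1.42.0, RLE factors, no filter, no fold threshold, a replicate block, other sets of groups in the model, a prior count of 0.5, and leaving out each tumor.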

Additional observations from a re-analysis of the deposited data

Results flagged for a closer look

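Tumors that stood far from the rest of their group were looked for with Dixon's test in 66 groups of 4 or 5 tumors, and 17 were found. Chance alone gives about 1 in 20 groups. The number found is a description and no test against that rate, since 15 of the 17 were in the identity genes, which were chosen by these levels, and the same tumor enters with each gene.

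5-FU+ICB replicate 5 was the tumor set apart in 8 of them. It held 218 CPM of Ms4a1, 287 CPM of Cd79a, 181 CPM of Cd79b, 70 CPM of Pax5, 61 CPM of Cr2, 109 CPM of Fcmr, 32.3 CPM of Fcer2a and 33.9 CPM of Blk. Cd22 was the 1 of the 9 identity genes for which this tumor was not set apart from its group.

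5-FU replicate 3 was far above the other 5-FU tumors for Cd79a (38.4 CPM), Cd79b (29.7 CPM), Cd22 (64.4 CPM) and the summed lymph node stroma genes (812 CPM).

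ICB replicate 3 was set apart for Ms4a1 (5.33 CPM) and Fcmr (1.5 CPM). Cisplatin replicate 4 was set apart for Cr2 (1.81 CPM) and Fcer2a (1.84 CPM). For Msln, the tumor cell gene, cisplatin+ICB replicate 1 was far above its group at 654 CPM.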

How the results depend on the processing

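Of 1980 alternative values of the fold changes of the 9 genes, 1942 stayed within the spread of the main value, 38 moved and 0 called genes changed direction. Genes that were not called did change sign. Without 5-FU+ICB replicate 5, all but Cd22 turned negative in 5-FU+ICB against 5-FU, with Ms4a1 going from 2.59 to -1.22. Cd79a in 5-FU+ICB against PBS went from 2.33 to -0.51. Counts of called genes (identity genes, then the 18 other B lineage genes) changed as follows. The cause was not tested. In 5-FU against PBS, from 2 and 2, RLE factors gave 4 other genes, no filter gave 1 and 1, the 6-group model 0 and 1, the model of both groups alone 6 and 9, and DESeq2 6 other genes. In ICB against PBS, from 1 and 5, the model of both groups alone gave 4 and 11, and the cisplatin matrix 2 identity genes. In 5-FU+ICB against PBS, from 8 and 16, DESeq2 gave 3 and 10. In cisplatin+ICB against PBS, from 1 and 0, identity genes went to 0 with no filter, in the 6-group model and in the model of both groups alone, and other genes to 1 with RLE factors and 4 with DESeq2. From 0, the 6-group model called 1 identity gene in 5-FU+ICB against ICB and DESeq2 2 and 1. DESeq2 called 2 other genes in the interaction of 5-FU with ICB, 1 identity gene in cisplatin+ICB against cisplatin, 1 other gene in 5-FU against cisplatin (the model of both groups alone gave 1 and 1), and 5 and 9 in 5-FU+ICB against cisplatin+ICB. Relative to Ptprc, the difference in mean log2 CPM was -1.16 for ICB (from 0.8) and -0.6 for cisplatin+ICB (from 0.67).

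Leaving out 1 tumor gave 1 to 3 and 3 to 7 in ICB against PBS, 0 to 7 and 1 to 11 in 5-FU against PBS, and 6 to 9 and 11 to 17 in 5-FU+ICB against PBS, with 5-FU+ICB replicate 5 giving 3 and 7, 7 and 11, and 6 and 11. Cisplatin+ICB against PBS ranged over 0 to 2 and 0 to 8, and against cisplatin over 0 to 1 and 0 to 2, the highest without cisplatin+ICB replicate 1. Without 5-FU+ICB replicate 2, 5-FU+ICB against 5-FU reached 1 and 2 and against cisplatin+ICB 8 and 12, from 0 and 0, the latter being 8 and 7 without cisplatin+ICB replicate 5. Other genes reached 1 from 0 in the interaction of 5-FU with ICB (without PBS replicate 4) and in 5-FU against cisplatin (without cisplatin+ICB replicate 1). The difference in mean log2 CPM ranged over 0.5 to 1.03 for ICB, 1.61 to 2.38 for 5-FU, -0.14 to 0.69 for cisplatin (-0.14 without replicate 4), 1.56 to 3.15 for 5-FU+ICB and 0.38 to 0.99 for cisplatin+ICB against PBS. It ranged over 0.76 to 2.35 for 5-FU+ICB against ICB, -0.42 to 0.19 for cisplatin+ICB against ICB, -0.51 to 1.08 for 5-FU+ICB against 5-FU (-0.51 without replicate 5), -0.01 to 0.81 for cisplatin+ICB against cisplatin, 1.24 to 2.21 for 5-FU against cisplatin and 0.88 to 2.48 for 5-FU+ICB against cisplatin+ICB. Of the 10 genes most like the identity genes, Spearman's measure kept 6. Leaving 5-FU+ICB replicate 5 or cisplatin+ICB replicate 1 out of fits whose comparison does not hold it was chosen after seeing the data.

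Replicate numbers did not pair the tumors: over 66 pairs of tumors with the same number the deviations correlated between -0.63 and 0.66 (median -0.02, 21 over 0.1). With the replicate block, 5-FU against PBS gave 0 and 1, 5-FU+ICB against PBS 10 other genes and cisplatin+ICB against PBS 0 identity genes. Depth limited Cr2 and Fcmr most, at 1 to 5 counts in PBS tumors. Fcer2a (5 to 8 counts) and Blk (3 to 15 counts) were also low there.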
